A study of Sus scrofa with 10 samples.

Results

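The 4 orphan nuclear receptor genes NR5A1, NR5A2, NR0B1 and NR0B2 were followed in RNA-seq of ovary tissue from 10 gilts. They were found by gene symbol and are 4 of the 19972 protein-coding loci in the deposited expression table, which holds 43499 loci in all. All 10 gilts had the same genetic background and were born on the same day. From an age of 210 days all were fed the oral progestin altrenogest, 20 mg daily over 18 days, so neither group had an unmanipulated cycle. After a pause of 2 days, 5 gilts of the rpFSH treatment group received 1000 IU of recombinant pig FSH (rpFSH), a follicle-stimulating hormone made in Chinese hamster ovary cells, and 5 control gilts received saline. Ovaries were collected at 234 days after the follicles on the surface had been taken off, and each pig gave 1 library with no pooling.

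NR5A1 (steroidogenic factor 1) and NR5A2 (liver receptor homolog 1) are transcription factors that bind DNA as monomers and switch on genes for steroid hormone synthesis. In the ovary NR5A1 is known from granulosa, theca and interstitial cells, and NR5A2 from granulosa and luteal cells, where it is needed for ovulation and luteal function. NR0B1 (DAX1) and NR0B2 (small heterodimer partner) lack the usual DNA-binding domain and act as repressors that bind NR5A receptors and other nuclear receptors.

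The libraries held 64873797 to 75114003 counts, so that 3 counts corresponded to 0.0399 to 0.0462 CPM. No 2 libraries held the same values. Ovarian markers were present in every pig: the summed FPKM (fragments per kilobase of transcript, scaled to sequencing depth) of the granulosa markers lay between 43.9 and 302, of the theca markers between 14.0 and 256, and of the oocyte markers between 4.26 and 22.2. Control replicates 2 and 5 stood apart in epithelial RNA, with ciliated epithelium sums of 25.0 and 52.3 FPKM against 1.16 to 4.36 in the other pigs, and surface or oviduct epithelium sums of 64.6 and 125 FPKM against 5.96 to 18.5. Values without these 2 pigs are given beside the receptor genes and the calls. In the fit of all loci, 8 of 10 ciliated epithelium markers were called lower with rpFSH (FOXJ1, MCIDAS, DNAH5, DNAH9, RSPH1, TEKT1, SPAG17 and CAPSL; median log2 fold change of the list -3.84), and 0 without these 2 pigs. Of 7 tested surface or oviduct epithelium markers 6 were called lower (EPCAM, KRT8, KRT18, CDH1, OVGP1 and MAL2; median -2.54), and 1 without them. Of 7 stroma markers LUM was called lower, and none without them.

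None of the 4 receptor genes was called between rpFSH treatment and control. NR5A2 carried the larger point estimate, which rested on 1 pig, and NR5A1 was slightly higher with rpFSH at a size within the spread of the pigs. NR0B1 was low and had equal means, and NR0B2 was at or near 0 counts. The test was edgeR's quasi-likelihood test on counts, and a locus was called at an unadjusted P under 0.05 with a log2 fold change beyond 1 in either direction, the limits of the study. By that rule 468 of 15170 tested protein-coding loci were called, or 3.09%, of which 77 (0.508%) were higher and 391 (2.58%) were lower with rpFSH. Without control replicates 2 and 5 the balance turned over, with 306 higher and 117 lower. None of the 15170 had a Benjamini-Hochberg adjusted p under 0.05 in edgeR (0%), where 722 (4.76%) had an unadjusted P under 0.05. In DESeq2 86 (0.567%) had such an adjusted p. None of the 3 receptor genes that passed the filter on low values was called, against that background of 3.09%, and NR0B2 did not pass it. Because these are samples of mixed ovary tissue without the surface follicles, fewer cells of a type and less RNA per cell cannot be told apart.

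**Figure D1:**
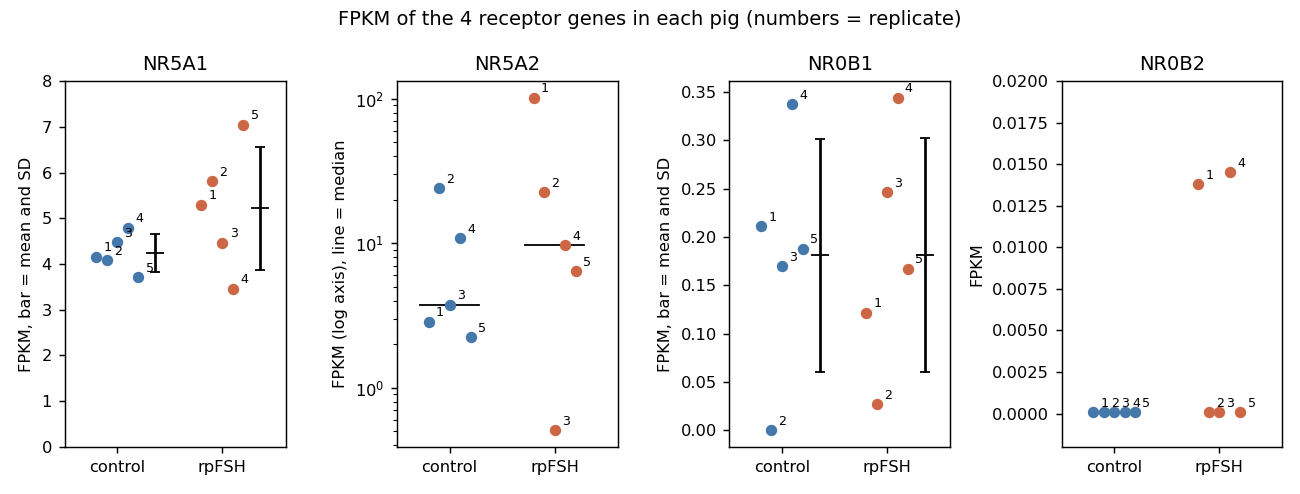
FPKM of NR5A1, NR5A2, NR0B1 and NR0B2 in each pig, with 5 control pigs in blue and 5 rpFSH pigs in orange, and replicate numbers beside the points. Bars give mean and SD for NR5A1 and NR0B1, lines the median for NR5A2, whose axis is logarithmic; the groups overlap for NR5A1, NR5A2 and NR0B1, and rpFSH replicate 1 stands at 101.6 FPKM in NR5A2.

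NR5A1 lies on chromosome 1 at 265284493-265311526 on the minus strand of Sscrofa11.1 and has 3 assembled transcripts. Its level was 4.16, 4.09, 4.48, 4.79 and 3.71 FPKM in control replicates 1 to 5. With rpFSH it was 5.29, 5.80, 4.47, 3.46 and 7.04 FPKM in replicates 1 to 5. The groups overlapped: rpFSH replicates 1, 2 and 5 were above every control, and rpFSH replicate 4 was below every control. Means were 4.24 ± 0.409 FPKM in control and 5.21 ± 1.35 FPKM with rpFSH (SD, n = 5 each). The log2 fold change was 0.37 (SE 0.19, 95% interval -0.05 to 0.78, edgeR, adjusted p = 1.00). The two-sided exact permutation test of the FPKM difference gave p = 0.175, where 0.00794 is the smallest that 5 against 5 pigs allow. Without control replicates 2 and 5 the log2 fold change was 0.30, not called. Without rpFSH replicate 4 it was 0.49, which passed the unadjusted limit but not the fold limit. In that case the exact permutation test gave p = 0.0238 for a difference of 1.41 FPKM.

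NR5A2 lies on chromosome 10 at 22727825-22866904 on the plus strand and has 7 assembled transcripts over 139080 bp. Its level was 2.86, 23.9, 3.75, 10.9 and 2.24 FPKM in control replicates 1 to 5. With rpFSH it was 101.6, 22.5, 0.507, 9.69 and 6.38 FPKM in replicates 1 to 5. The highest and the lowest pig were both treated, and the other 3 treated pigs lay within the range of the controls. The counts behind these levels ran from 269 to 60441, so counting error was small beside the spread between pigs. Means were 8.73 ± 9.18 FPKM in control and 28.1 ± 41.9 FPKM with rpFSH (SD, n = 5 each), and medians were 3.75 and 9.69 FPKM. The log2 fold change was 1.74 (SE 1.12, 95% interval -0.74 to 4.22, edgeR, adjusted p = 1.00). The exact permutation test of the FPKM difference gave p = 0.429.

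The NR5A2 estimate turned on rpFSH replicate 1, which held 72.2% of the summed FPKM of its group and 4.25 times the level of the next pig. Without it the treated mean was 9.78 ± 9.32 FPKM (SD, n = 4), and the log2 fold change was 0.26. Without control replicate 2, the highest control, it was 2.57, and without rpFSH replicate 3, the lowest pig, it was 2.05, neither of them called. Without control replicates 2 and 5 together it was 2.33, again not called.

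NR0B1 lies on chromosome X at 26117838-26122995 on the minus strand. Its level was 0.211, 0.170, 0.337 and 0.188 FPKM in control replicates 1, 3, 4 and 5, and control replicate 2 had 0 counts. With rpFSH it was 0.122, 0.0268, 0.246, 0.344 and 0.167 FPKM in replicates 1 to 5. The groups covered the same range, from 0 to 47 counts in control and from 4 to 45 counts with rpFSH. Means were 0.181 ± 0.121 FPKM in both groups (SD, n = 5 each). The log2 fold change was 0.07 (SE 0.90, 95% interval -1.92 to 2.05, edgeR, adjusted p = 1.00), and its sign was lost under other settings. The exact permutation test gave p = 1.00.

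NR0B2 lies on chromosome 6 at 84225238-84229681 on the plus strand. It had 4 counts in rpFSH replicate 1 and 4 in rpFSH replicate 4, which are 0.0138 and 0.0145 FPKM. The other 8 pigs had 0 counts, which allows up to 3 counts in each. It fell under the mean of 0.1 FPKM required for the edgeR test, and the exact permutation test gave p = 0.444. No fold change is given, since the controls were all at 0.

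**Figure D2:**
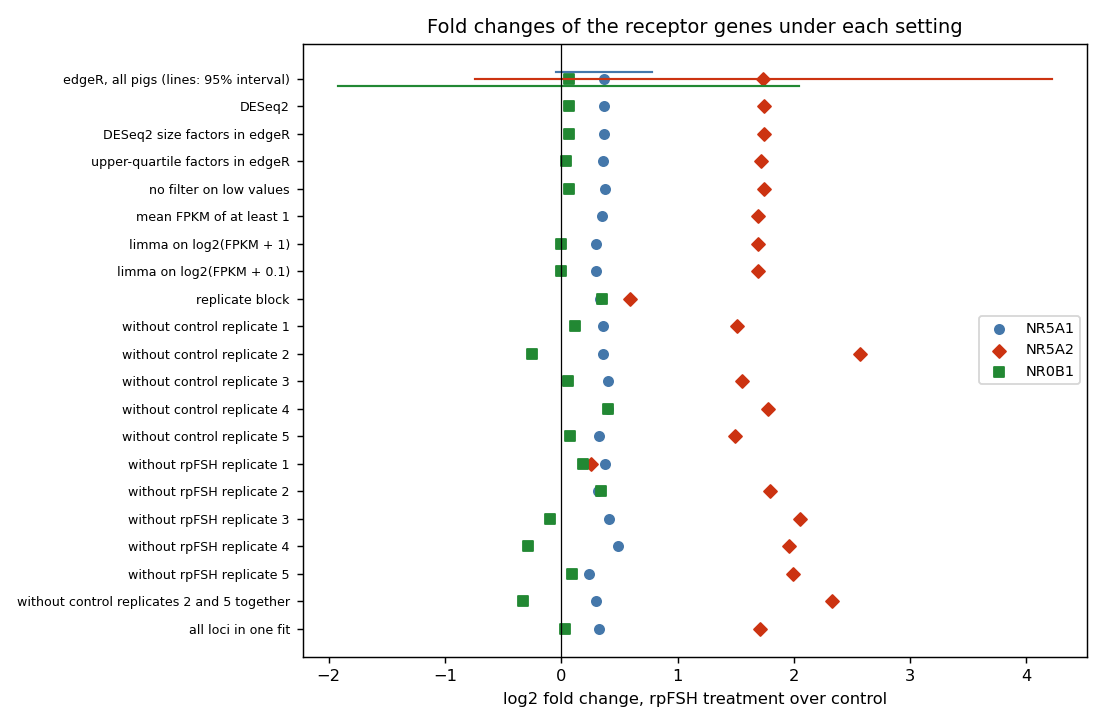
Log2 fold change of rpFSH treatment over control for NR5A1, NR5A2 and NR0B1 (x axis) under each setting of the test (y axis), with 95% intervals drawn for edgeR on all pigs. For limma the points are log2 ratios of mean FPKM. NR5A2 drops from 1.74 to 0.26 without rpFSH replicate 1 and to 0.59 with a replicate block, NR5A1 stays between 0.24 and 0.49, and NR0B1 falls on either side of 0.

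Among the nuclear receptor genes with a protein-coding locus, 48 with the 4 described here, NR5A2 ranked 2 by mean FPKM and 4 by median. NR1D2, a clock repressor of the REV-ERB group, was first by both. In single pigs NR5A2 ranked between 1 (control replicate 2 and rpFSH replicate 1) and 34 (rpFSH replicate 3), whereas NR5A1 ranked between 6 and 19. NR0B1 ranked 40 by mean and NR0B2 ranked 48, the lowest. FPKM is scaled by length, but these levels also rest on the assembled transcripts and on how reads of overlapping loci were assigned. The ranks are therefore approximate.

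NR5A2 varied widely between pigs. Its highest level was 200 times its lowest, and 49 of 13989 protein-coding loci had a larger ratio. It had the largest ratio of the 43 nuclear receptor genes for which the ratio could be formed. NR5A1 varied 2.04-fold, under the median of 2.56-fold over those loci. The FPKM ratio of NR5A2 to NR5A1 accordingly ran from 0.114 in rpFSH replicate 3 to 19.2 in rpFSH replicate 1, and was above 1 in 5 of 10 pigs.

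**Figure D3:**
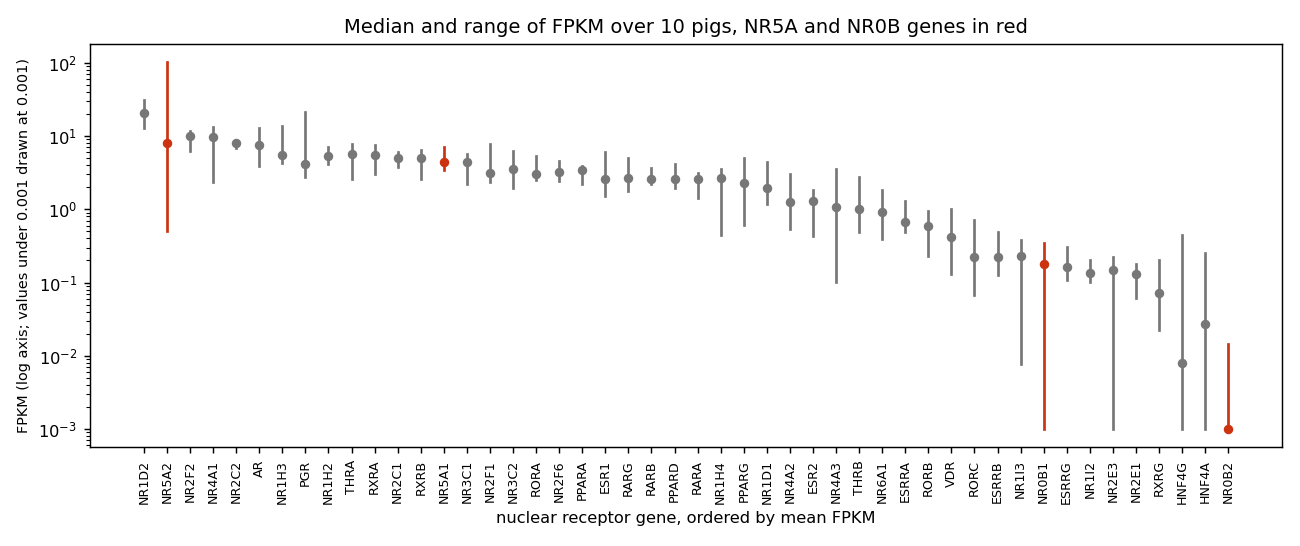
Median (point) and range (line) of FPKM over 10 pigs, on a logarithmic axis, for 48 nuclear receptor genes ordered by mean FPKM, with the 4 receptor genes in red. NR5A2 spans 0.507 to 101.6 FPKM, NR5A1 stays within 3.46 to 7.04 FPKM, and NR0B1 and NR0B2 lie in the low tail.

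The table also holds 20536 unannotated loci that were assembled from these reads, meaning here loci without a transcript type. Of those, 16 lay within 100000 bp of NR5A2, 7 of NR5A1, 3 of NR0B2 and 0 of NR0B1. NR5A2 was overlapped by 11 of them, 10 lying wholly inside its span, with 3 of the 11 on its strand and 8 on the other. All 11 bear the gene name NR5A2 in the deposited table. It is not stated whether reads were counted by strand, so reads of NR5A2 and of loci on the other strand cannot be told apart. The same holds for NR5A1 and MSTRG.3264, which overlaps it on the other strand at a median of 56.3% of its FPKM. MSTRG.3264 bears the name of a neighbouring gene, ADGRD2.

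The 10 loci inside NR5A2 followed its level closely. All 10 were highest in rpFSH replicate 1, at 12.9 to 46.5 FPKM, and lowest in rpFSH replicate 3, at 0.0765 to 0.251 FPKM. Their median level was 15.0% to 43.8% of that of NR5A2 in the same pigs, and their summed counts were 2.04 to 3.22 times its own. Some of the loci overlap one another, MSTRG.3906 covering MSTRG.3907 and MSTRG.3909, so a read may enter these sums more than once. Pearson r with NR5A2 over the 10 pigs lay between 0.96 and 0.99 on the log2(FPKM + 1) scale, as a description of loci that share position and possibly reads. None of the 10 was called.

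MSTRG.3902, the 11th overlapping locus, lies on the plus strand of chromosome 10 at 22703120-22773335 and runs across the start of NR5A2. It had 34.3 FPKM in rpFSH replicate 1, from 16075 counts, and 2.04 FPKM in rpFSH replicate 5. In the other 8 pigs it was at most 0.456 FPKM, with 0 counts in control replicates 1 and 3 and in rpFSH replicate 3. It was called higher with rpFSH (log2 fold change 5.43, edgeR, adjusted p = 0.737), and without rpFSH replicate 1 the call was lost (log2 fold change 1.78). It was also lost without any 1 of control replicates 1, 3, 4 and 5, at log2 fold changes of 5.10, 5.10, 5.71 and 5.29, and without control replicates 2 and 5 together at 6.20. Limma did not call MSTRG.3902, nor did edgeR with a replicate block (log2 fold change 2.43), and DESeq2 gave it no P. MSTRG.3898, a short locus on chromosome 10 at 22662415-22662727, 65098 bp before NR5A2, was also called higher (log2 fold change 4.90, edgeR, adjusted p = 0.737). It had 142 counts in rpFSH replicate 1, 19 in rpFSH replicate 5 and no more than 4 in any other pig. Neither locus was called without rpFSH replicate 1, without any 1 of control replicates 1, 3 and 4, or without control replicates 2 and 5 together. It does not overlap NR5A2 and was chosen after its values were seen. MSTRG.3891, of another class and not tested, lies 50727 bp from NR5A2 and had 5.34 FPKM in rpFSH replicate 1 and no more than 0.671 FPKM elsewhere. These 2 were the calls among 26 tested unannotated loci near the receptor genes, where 1.37% of 19909 tested unannotated loci were called higher and 3.77% in either direction.

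**Figure D4:**
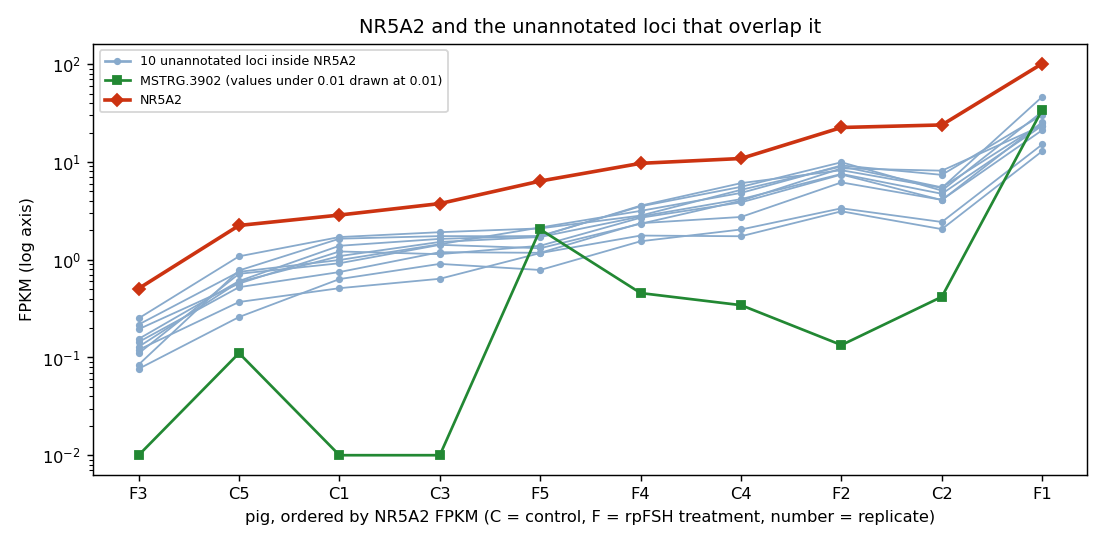
FPKM on a logarithmic axis of NR5A2 (red), the 10 unannotated loci inside it (blue) and MSTRG.3902 (green), in 10 pigs ordered by NR5A2 level. The blue lines rise with NR5A2 from rpFSH replicate 3 to rpFSH replicate 1, whereas MSTRG.3902 reaches 34.3 FPKM in rpFSH replicate 1 and 2.04 FPKM in rpFSH replicate 5.

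No tested protein-coding neighbour was called. NR6A1, another orphan nuclear receptor, lies 10523 bp from NR5A1 and had a log2 fold change of -0.81 (edgeR, adjusted p = 1.00). PSMB7, a proteasome subunit on the other side of NR5A1, had 0.22 (adjusted p = 1.00).

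Of 31 genes listed as NR5A targets 22 were tested, 1 was called higher and 1 lower, beside 3.09% called over all coding loci, and their median log2 fold change was -0.01, as it was over all tested loci. Without control replicates 2 and 5 that median was 0.25. PRLR, the prolactin receptor, fell from 1.90 ± 1.55 to 0.320 ± 0.299 FPKM (SD, n = 5 each; log2 fold change -2.46, edgeR, adjusted p = 0.992), and the call was lost without control replicates 2 and 5 (log2 fold change -1.95). CYP7A1, the rate-limiting enzyme of bile acid synthesis and a hepatic NR5A2 target, was called higher (log2 fold change 2.87, edgeR, adjusted p = 1.00) at 0 to 208 counts. It reached 0.647 FPKM in rpFSH replicate 3 and 0.219 FPKM in rpFSH replicate 4, and at most 0.0632 FPKM in the others. The call was lost without rpFSH replicate 3 (log2 fold change 1.51), without rpFSH replicate 4 (2.82) and without any 1 of control replicates 2 to 5, where it was 2.92, 2.55, 3.02 and 2.60, and without control replicates 2 and 5 together, where it was 2.58.

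Of the 4 targets of highest level, CYP11A1, STAR and SCARB1 were high in the same 3 pigs, and INSL3 was not. CYP11A1, which cleaves the side chain of cholesterol, had 1758 FPKM in control replicate 2, 787 in rpFSH replicate 1 and 178 in rpFSH replicate 4, against 4.85 to 34.4 in the other 7 pigs (log2 fold change -0.82, edgeR, adjusted p = 1.00). STAR, which carries cholesterol into mitochondria, had 532, 448 and 121 FPKM in the same 3 pigs and 1.52 to 5.67 in the others (log2 fold change 0.14, not called). SCARB1, the receptor for high-density lipoprotein, had 183, 123 and 28.8 FPKM in them and 4.25 to 7.73 in the others (log2 fold change -0.24, not called). INSL3, a theca hormone, was low in control replicate 2 at 0.351 FPKM and highest in control replicate 3 at 181 FPKM (log2 fold change -1.16, not called).

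The counts of 0 that follow stand beside 3.09% called over all coding loci, and over lists of 22 to 41 genes they are near that background. None of 22 tested cofactors of the NR5A and NR0B receptors was called, with a median log2 fold change of 0.07. Those of highest level were CTNNB1, encoding beta-catenin (log2 fold change -0.05), EP300 and CREBBP, both acetyltransferases, and HDAC3, a deacetylase. None of 22 tested gonadal transcription factors was called (median 0.13), among them FOXO1, CEBPB, NR4A1 and FOXO3 at the highest levels. RUNX1, a granulosa factor, had a log2 fold change of 0.79 (edgeR, adjusted p = 0.992), which passed the unadjusted limit but not the fold limit. It was singled out after its values were seen. None of 41 tested other nuclear receptors was called (median -0.04), NR1D2, NR2F2, NR4A1 and NR2C2 being highest in level.

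NR5A2 was at 9.69 FPKM or more in 5 pigs. Control replicate 2, rpFSH replicate 1 and rpFSH replicate 4 had luteal marker sums of 2757, 1467 and 355 FPKM, whereas the other 7 pigs had 20.6 to 68.7 FPKM. Control replicate 4 and rpFSH replicate 2 had the highest granulosa marker sums, 298 and 302 FPKM. Several luteal markers, among them STAR, CYP11A1, SCARB1 and PRLR, are also in the list of NR5A targets. CYP11A1, STAR and SCARB1, described above as targets, made up most of the luteal sum in the pigs where it was high. Control replicate 2 had the lowest granulosa sum, 43.9 FPKM, and control replicate 1, at 197 FPKM, had only 2.86 FPKM of NR5A2. Correlations with marker lists, here and below, used the mean log2(FPKM + 1) over the genes of a list, not the summed FPKM. Over all 10 pigs NR5A2 and the granulosa markers had r = 0.22 (permutation p = 0.536, adjusted 0.861) and rho = 0.16 (permutation p = 0.657, adjusted 0.974), with r = 0.31 without control replicate 2 and rpFSH replicate 3. With the luteal markers NR5A2 had r = 0.72 (permutation p = 0.0162, adjusted 0.486) and rho = 0.68 (permutation p = 0.0344, adjusted 0.516) over all 10 pigs. Without control replicate 2 and rpFSH replicate 1 that r was 0.33. The part of the luteal and granulosa markers in the level of NR5A2 was not tested.

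**Figure D5:**
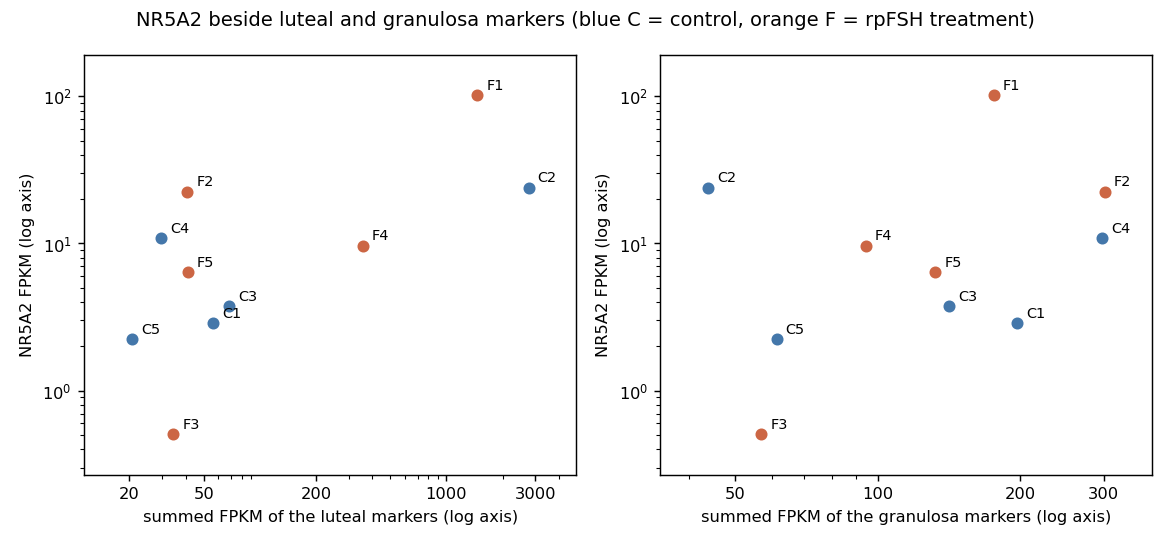
NR5A2 FPKM (y axis) against the summed FPKM of luteal markers (left) and granulosa markers (right), both axes logarithmic, 1 point per pig (C control, F rpFSH treatment, number the replicate). Pigs C2, F1 and F4 lie at the high end of the luteal axis, and F2 and C4 at the high end of the granulosa axis.

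Correlations across pigs were computed on log2(FPKM + 1) with 100000 permutations. None of the 3 receptor pairs with enough counts had an adjusted permutation p under 0.05. NR5A1 and NR5A2 had Pearson r = 0.29 (permutation p = 0.406, adjusted 0.406) and Spearman rho = 0.32 (permutation p = 0.366, adjusted 0.366), and r = 0.42 without rpFSH replicates 2 and 5. NR0B1 had negative values with NR5A2, at r = -0.45 (permutation p = 0.187, adjusted 0.406) and rho = -0.53 (permutation p = 0.122, adjusted 0.349), with r = -0.46 without rpFSH replicates 1 and 3. None of 30 relations between the receptor genes and 10 marker lists had an adjusted permutation p under 0.05 over all 10 pigs.

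The protein-coding loci most like each receptor gene over the 10 pigs, of 15169 compared by Pearson r, are given as a description. For NR5A2 they were TMEM229A (r = 0.97), APIP (0.94), RPP25 (0.93), GSTA2 (0.93) and PAPPA (0.93), all highest in rpFSH replicate 1 and lowest in rpFSH replicate 3. GSTA2, a glutathione S-transferase, ran from 0.374 to 56.7 FPKM, and PAPPA, a protease that cleaves insulin-like growth factor binding protein, from 1.36 to 22.3 FPKM. For NR5A1 they included ENSSSCG00000029043 (0.93), MDGA1 (0.88), TBP (0.86) and MTREX (0.85), these 4 being highest in rpFSH replicate 5. For NR0B1 they were CEP68 (0.93), NBL1 (0.91), GEMIN2 (0.91), ELL3 (0.90) and ENSSSCG00000035986 (0.89).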

How the data were processed

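Per the labels and methods, the authors aligned reads to Sscrofa11.1 and assembled loci, with Bowtie 0.12.2, HISAT2 2.0 and StringTie 1.3.0 in the submitters' processing notes. The labels give poly(A) selection, the methods rRNA removal, and the instruments named also differ. The deposited table holds raw counts and FPKM values per locus and pig, with 0.0001 FPKM in place of 0. How counts were made is not given in the sources used here. Counts were tested with edgeR 4.0.16 (TMM factors, quasi-likelihood test, mean FPKM of at least 0.1). Unannotated loci were fitted separately. DESeq2 1.42.0 and limma 3.58.1, the latter on log2(FPKM + 1) and log2(FPKM + 0.1), were alternatives, as were other scalings and filters, a replicate block and leaving out pigs. Limma gave only the P, and the log2 fold change set beside it was the log2 ratio of mean FPKM. On simulated counts with 200 of 15170 loci changed by a log2 of 2, 94.5% were recovered and 1.92% of the unchanged loci were called. The changed loci were drawn only from those of higher mean count, so recovery was not measured for loci of low count such as NR0B1. Nor was it measured separately for loci as variable between pigs as NR5A2, whose log2 fold change had an SE of 1.12. Pigs were grouped by label, 5 per group. The receptor genes and lists were chosen with earlier results of these data known. Named genes were the 4 receptors, called list genes, the 4 of highest mean FPKM in each pathway list, the 5 loci most like each receptor (1 of them is not reported here), and called overlapping loci. NR6A1, PSMB7, RUNX1, MSTRG.3264, MSTRG.3891 and MSTRG.3898 were added after their values were seen.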

Additional observations from a re-analysis of the deposited data

Results flagged for a closer look

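Dixon's test flags about 1 in 20 groups by chance if values are normal and independent, which skewed FPKM values of overlapping loci are not. With that limit, a pig stood apart from the rest of its group of 5 in 11 of 51 groups tested. NR5A2 in rpFSH replicate 1 (101.6 FPKM) was 1 of them, as were 6 of the unannotated loci that overlap it in the same pig: MSTRG.3902 (34.3 FPKM), MSTRG.3907 (21.2), MSTRG.3910 (46.5), MSTRG.3912 (25.5), MSTRG.3913 (15.1) and MSTRG.3914 (12.9). These 7 values are not independent, since the loci share position. The luteal marker sum stood apart in control replicate 2 (2757 FPKM) and in rpFSH replicate 1 (1467 FPKM). The smooth muscle sum stood apart in control replicate 5 (1822 FPKM), and the ciliated epithelium sum on the low side in rpFSH replicate 1 (1.16 FPKM).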

How the results depend on the processing

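No receptor gene was called under any of the 20 alternatives, and NR5A1 and NR5A2 kept their direction in all of them, with log2 fold changes of 0.24 to 0.49 and 0.26 to 2.57. Under limma these values are log2 ratios of mean FPKM, 0.30 for NR5A1 and 1.69 for NR5A2. The NR5A2 difference in mean log2(FPKM + 0.1) was 0.73. NR0B1, near 0, changed sign: the log2 ratio of its mean FPKM, set beside the limma tests, was -0.000245. Its edgeR log2 fold change was -0.33 without control replicates 2 and 5, and -0.28 to 0.41 with 1 pig left out. Its FPKM difference was 0.000128 on log2(FPKM + 1), 0.0253 on log2(FPKM + 0.1), 0.00230 after upper-quartile scaling and -0.0453 to 0.0389 with 1 pig left out. That of NR5A1 was 0.511 to 1.41 FPKM with 1 pig left out. Calls among unannotated loci near the receptors went from 2 to 1 at a mean FPKM of at least 1, to 0 in limma, with the block and without control replicates 2 and 5, and to 0 to 6 with 1 pig left out, 6 without rpFSH replicate 3. Calls in the 4 pathway lists went from 2 to 4 in DESeq2 and without a filter, to 1 at a mean FPKM of at least 1, and to 1 to 5 with 1 pig left out. MSTRG.3264 ran from -0.33 to 0.04 and MSTRG.3906 from -0.062 to 2.18 with 1 pig left out. Replicate numbers did not pair the pigs (deviations of same-numbered pigs correlated at -0.29 to -0.03), and with a replicate block NR5A2 had 0.59, not called, and coding calls went from 468 to 190. Limma called 38 higher and 134 lower on log2(FPKM + 1) and 50 and 186 on log2(FPKM + 0.1), and a mean FPKM of at least 1 left 40 and 105. The causes were not tested. NR0B2, at 0 to 4 counts, is limited by depth.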

Other observations

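The luteal marker sums fell into separate clusters, so the 30 relations between receptor genes and marker lists were also computed within the 7 pigs with a luteal sum under 100 FPKM, a choice made after seeing the data. By exact permutation tests 2 of the 30 passed 0.05 before adjustment and 1 after it. The adjustment over the 30 relations does not cover the choice of these 7 pigs. NR5A2 and the leukocyte markers had r = -0.97 (exact permutation p = 9.9e-04, adjusted 0.0298) and rho = -0.96 (exact permutation p = 0.00278, adjusted 0.0833), with r = -0.89 without the 2 farthest pigs, and over all 10 pigs r was -0.43 (permutation p = 0.209, adjusted 0.696). NR5A2 and the granulosa markers had r = 0.87 (exact permutation p = 0.0121, adjusted 0.182) and rho = 0.86 (exact permutation p = 0.0238, adjusted 0.357), with r = 0.73 without the 2 farthest pigs.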
